A study of Mus musculus with 6 samples.

Results

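Igf1, its receptor gene Igf1r and the genes of 6 insulin-like growth factor binding proteins, Igfbp2, Igfbp3, Igfbp4, Igfbp5, Igfbp6 and Igfbp7, were examined in mouse embryonic fibroblasts (MEFs) with and without Atxn3, the gene of the deubiquitinase ATXN3. They were read by probe sets, groups of short oligonucleotides that bind a transcript, and each probe set was kept where the platform annotation names 1 of these genes and no other. The rule gave 24 probe sets of the 45037 tested, and 8 genes of the 18193 measured. RNA came from Atxn3-WT MEFs, isolated from wild-type mice, and from Atxn3-KO MEFs, in which the mice lacked Atxn3, with 3 Affymetrix arrays per genotype and no treatment. The age of the embryos and whether MEFs of several embryos were pooled were not given in the labels or the methods. The methods call the replicates biological without naming an embryo or culture for each, so a p-value here covers the spread among the arrays of a genotype, and that spread may be technical. Values are log2 levels, differences are Atxn3-KO minus Atxn3-WT on that scale, and the level of a probe set is compared only with itself, since probe sets differ in how brightly they bind.

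IGF1 is a secreted peptide that binds the receptor tyrosine kinase IGF1R on the same or on neighbouring cells. The activated receptor recruits adaptors such as IRS proteins and turns on PI3K-AKT and RAS-MAPK signaling, which drive growth, survival and protein synthesis, and fibroblasts are a known local source of IGF1. The binding proteins hold IGFs outside the cell. They limit access to the receptor, carry IGFs to the cell surface or matrix, and release them when proteases cut the binding protein.

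The arrays of the 2 genotypes were alike in the spread of their values. The 25th percentile of the log2 levels lay between 4.36 and 4.39 on all 6 arrays, and arrays of a genotype correlated at 0.998 to 0.999. Atxn3 itself, read by the brighter of its probe sets, had a mean of 6.67 ± 0.14 (SD, n = 3) in Atxn3-WT and 3.59 ± 0.15 (SD, n = 3) in Atxn3-KO MEFs, in the direction of the labels. Its dimmer probe set, 1440855_at, had a difference of -0.35 (adjusted p = 0.117) with overlapping groups. The position of the Atxn3 probes relative to the deletion was not determined. Of 12 fibroblast markers, 9 lay above the 75th percentile of every array in both genotypes, including Col1a1, Col1a2 and Vim. The marker Lum lay below the 25th percentile in both. Of the 12, 4 were called higher at an adjusted p of 0.05 (Prrx1 by 1.11 on the log2 scale, Lum, Pdgfrb and Twist1). At the same threshold 5 were lower (Thy1, which fell by 4.21, Col1a2, Col3a1, Pdgfra and Fap). Over all genes, each by its brightest probe set, 17.1% were higher and 14.7% lower. The log2 of the summed fibroblast marker signal was 16.20 to 16.22 in Atxn3-WT and 16.05 to 16.11 in Atxn3-KO MEFs. Marker lists of other cell types are set beside the members further on.

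Igf1, Igfbp2 and Igfbp4 were lower in Atxn3-KO MEFs, and Igfbp6 and Igfbp7 were higher. The largest falls were 2.75-fold for Igfbp2 and 2.48-fold for a probe set of Igfbp4, while Igfbp7 and Igfbp6 rose by 1.89-fold and 1.71-fold. No probe set of Igf1r passed an adjusted p of 0.05. The test from limma called 12 of the 24 probe sets lower and 4 higher, and 8 passed in neither direction. Among all probe sets tested, 13.5% were lower and 12.5% were higher at this threshold, and 26.0% passed in either direction. Of the 12 lower probe sets, 4 were of Igf1 and 6 of Igfbp4. By gene, 4 of the 8 had only lower calls, 3 had only higher calls, 1 had none and 0 had calls in both directions. Here a gene counts if any of its probe sets passed, and Igfbp3 and Igfbp5 each count by 1 dim probe set only. Over all genes, each by its brightest probe set alone, 14.7% were lower and 17.1% higher, which is not a like measure. The median size of the difference was 0.66 over the member probe sets and 0.11 over all probe sets. With the adjusted p held to 0.001 and the change to 2-fold, the thresholds of the methods, calls were made for 3 member probe sets, of Igfbp2 and Igfbp4, all lower, against 1.31% of all probe sets and 0.515% for lower ones. In bulk RNA fewer cells that express a gene cannot be told from less RNA of it per cell.

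**Figure D1:**
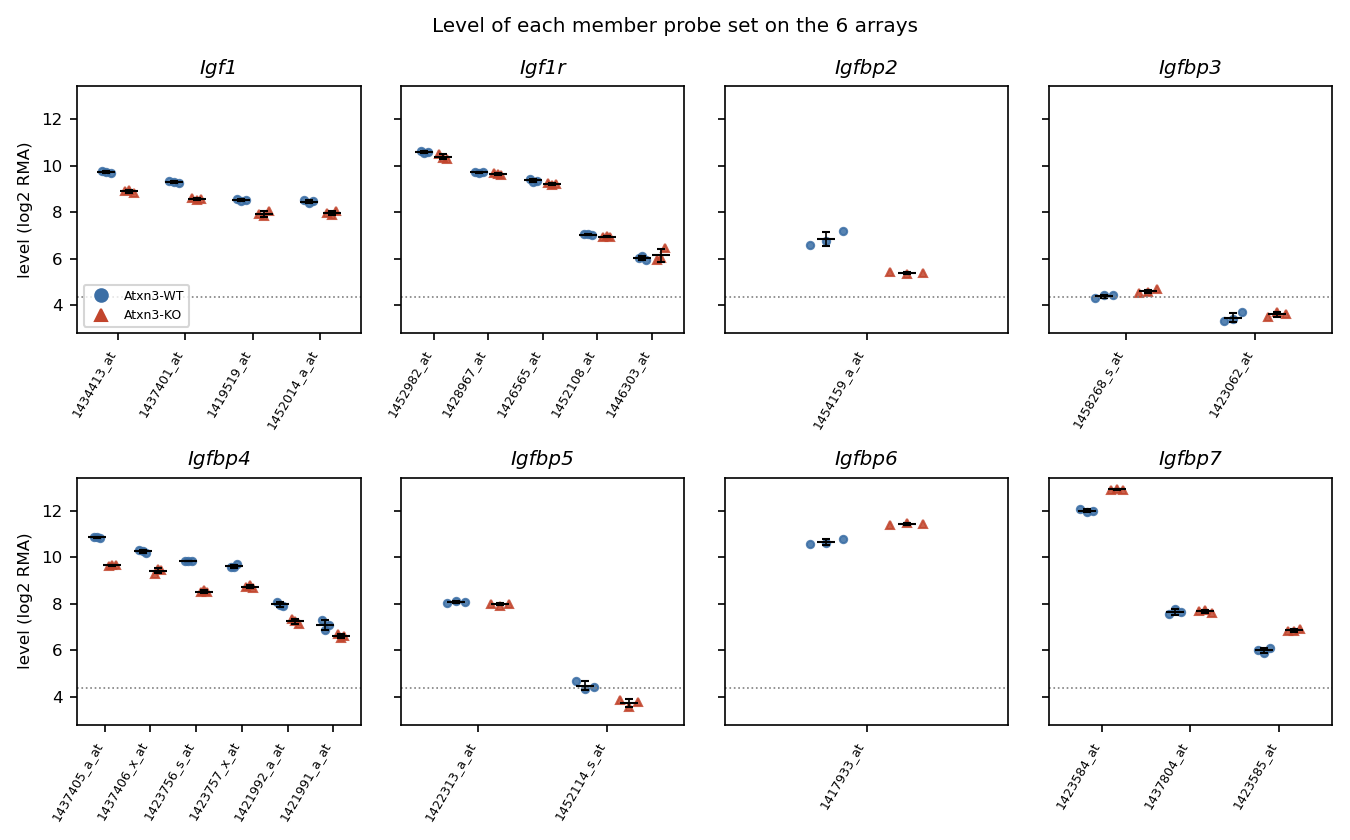
Log2 level (vertical axis) of each of the 24 member probe sets (horizontal axis) on 3 Atxn3-WT arrays (circles) and 3 Atxn3-KO arrays (triangles). Black bars are means with SD, and the dotted line is the lowest 25th percentile of an array, 4.36; Igf1, Igfbp2 and Igfbp4 lie lower and Igfbp6 lies higher on every Atxn3-KO array.

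To show the regulatory sequence of the members with the clearest changes, the 250 bases before the annotated start are given for the 3 genes that were lower and the 2 that were higher. They are from RefSeq, build GRCm38.p6, 5′ to 3′ on the strand of the gene. All 8 members matched the table, with 9 starts in all because Igfbp2 has 2, of which the first is shown. Letters of 4 known motifs were searched on both strands, and matches are in capitals. They were TATAAA, the core promoter box near which transcription starts, and GGGCGG, the box that SP factors bind. The others were CACGTG, known as the E-box, and TGTTTAC, a forkhead motif of the kind that FOXO factors bind. No match overlapped another in the windows shown.
Igf1, chr10:87860861-87861110, plus strand: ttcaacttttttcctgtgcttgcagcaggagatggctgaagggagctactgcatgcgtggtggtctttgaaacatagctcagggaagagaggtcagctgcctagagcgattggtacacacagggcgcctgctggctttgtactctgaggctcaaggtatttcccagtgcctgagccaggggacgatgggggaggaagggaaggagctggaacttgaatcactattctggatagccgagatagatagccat
Igfbp2, chr1:72824230-72824479, plus strand: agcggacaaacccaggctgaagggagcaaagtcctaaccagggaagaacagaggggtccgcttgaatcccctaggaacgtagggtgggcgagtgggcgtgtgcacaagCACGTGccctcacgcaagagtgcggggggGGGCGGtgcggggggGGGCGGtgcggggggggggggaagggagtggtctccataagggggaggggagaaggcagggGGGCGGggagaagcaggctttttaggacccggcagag
Igfbp4, chr11:99040994-99041243, plus strand: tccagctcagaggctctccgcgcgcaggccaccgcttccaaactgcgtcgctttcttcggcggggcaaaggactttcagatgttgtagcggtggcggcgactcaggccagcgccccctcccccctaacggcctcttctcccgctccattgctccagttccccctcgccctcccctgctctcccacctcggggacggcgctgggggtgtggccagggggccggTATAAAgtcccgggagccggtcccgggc
Igfbp6, chr15:102143936-102144185, plus strand: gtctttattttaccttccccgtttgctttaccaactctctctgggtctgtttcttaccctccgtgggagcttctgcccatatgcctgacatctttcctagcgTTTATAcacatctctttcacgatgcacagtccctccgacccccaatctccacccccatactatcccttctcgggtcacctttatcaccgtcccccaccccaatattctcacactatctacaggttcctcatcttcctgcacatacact
Igfbp7, chr5:77408046-77408295, minus strand: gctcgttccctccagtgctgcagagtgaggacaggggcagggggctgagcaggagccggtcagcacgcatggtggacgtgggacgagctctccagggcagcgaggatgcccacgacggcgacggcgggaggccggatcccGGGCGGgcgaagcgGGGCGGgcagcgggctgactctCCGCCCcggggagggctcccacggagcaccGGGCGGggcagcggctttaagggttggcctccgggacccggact

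The upstream sequences differed in these letters among members that moved the same way. A core promoter box match lay 28 bases before the start of Igfbp4 and another, on the opposite strand, 148 bases before that of Igfbp6, and such letters were found upstream of 12.4% of all 32851 starts in the table. The SP box letters were found 3 times before Igfbp2 and 4 times before Igfbp7, against at least 1 in 32.7% of all starts. The E-box letters were found once before Igfbp2 and at least once before 6.02% of all starts. The forkhead letters, found in 3.17% of all starts, were in none of the 9 member windows. CpG pairs numbered 5 before Igf1, 14 before Igfbp2, 22 before Igfbp4, 7 before Igfbp6 and 26 before Igfbp7, against a median of 6. For Igfbp2 these counts are of the first start. The window of its second start had 11 CpG pairs and no match to any of the motifs. These matches describe the letters in the windows only, and no binding was measured here. Of the members not shown, Igf1r lies on chromosome 7, Igfbp3 on chromosome 11 and Igfbp5 on chromosome 1, and Atxn3 itself lies on chromosome 12, which holds no member.

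Igf1, the ligand, was lower on every Atxn3-KO array in all 4 of its probe sets. The brightest, 1434413_at, had log2 levels of 9.78, 9.71 and 9.69 on the Atxn3-WT arrays of replicates 1, 2 and 3 and of 8.91, 8.96 and 8.83 on the Atxn3-KO arrays. The groups did not overlap, and the difference of -0.83 (standard error 0.052, adjusted p = 4.84e-05) left 56.1% of the Atxn3-WT level. The probe set 1437401_at had 9.33, 9.29 and 9.27 in Atxn3-WT and 8.61, 8.50 and 8.55 in Atxn3-KO MEFs, a difference of -0.75 (standard error 0.047, adjusted p = 4.91e-05). These groups were as clearly apart. The dimmer 1419519_at had 8.55, 8.49 and 8.52 against 7.92, 7.82 and 8.07, a difference of -0.58 (adjusted p = 7.77e-04), and 1452014_a_at had 8.54, 8.37 and 8.46 against 7.95, 7.90 and 8.07, a difference of -0.48 (adjusted p = 0.00162). The 95% confidence interval of 1434413_at, from -0.96 to -0.71, did not overlap that of 1452014_a_at, from -0.64 to -0.33.

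Igf1r, the receptor of IGF1, had small differences. Its brightest probe set, 1452982_at, had levels of 10.62, 10.55 and 10.58 in Atxn3-WT and 10.51, 10.34 and 10.29 in Atxn3-KO MEFs. The difference was -0.20 (95% confidence interval -0.35 to -0.05, adjusted p = 0.0570). The probe set 1426565_at had 9.42, 9.32 and 9.36 against 9.25, 9.18 and 9.19, a difference of -0.16 (95% confidence interval -0.27 to -0.04, adjusted p = 0.0516). On both probe sets the Atxn3-KO arrays lay below all Atxn3-WT arrays. The probe sets 1428967_at and 1452108_at had differences of -0.07 and -0.09 with adjusted p-values of 0.285 and 0.179, also with every Atxn3-KO array lower. The dim 1446303_at had 0.11 (95% confidence interval -0.19 to 0.42), with overlapping groups. The calls of the first pair turned on the variance model and the filter: with an intensity trend 1452982_at and 1426565_at passed, with adjusted p-values of 0.00525 and 0.0119, and among probe sets above the median level with 0.0211 and 0.0142. With array weights 1426565_at had an adjusted p of 0.0464, and without Atxn3-KO replicate 1 the difference of 1452982_at was -0.27, with an adjusted p of 0.0160.

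Igfbp2, whose protein binds IGF1 and IGF2 and carries an integrin-binding RGD motif, had the lowest difference of the members. Its only probe set, 1454159_a_at, had levels of 6.59, 6.77 and 7.17 in Atxn3-WT and 5.43, 5.34 and 5.39 in Atxn3-KO MEFs. The Atxn3-WT arrays spread more widely, with replicate 3 the highest, and still lay above every Atxn3-KO array. The difference was -1.46 (standard error 0.14, adjusted p = 3.01e-04), so that 36.4% of the Atxn3-WT level was left. Without each array in turn it ranged from -1.59 to -1.29.

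Igfbp4, which encodes a binding protein that mostly keeps IGFs from the receptor, was lower in all 6 of its probe sets. The probe set with the lowest difference, 1423756_s_at, had levels of 9.83, 9.82 and 9.85 in Atxn3-WT and 8.51, 8.57 and 8.49 in Atxn3-KO MEFs, a difference of -1.31 (standard error 0.044, adjusted p = 2.85e-06). The brightest, 1437405_a_at, had 10.86, 10.86 and 10.81 against 9.62, 9.66 and 9.66, a difference of -1.20 (standard error 0.042, adjusted p = 3.35e-06). In both, the replicates of a genotype lay close together and the genotypes far apart. The probe sets 1423757_x_at, 1437406_x_at and 1421992_a_at had differences of -0.88 (adjusted p = 4.56e-05), -0.84 (adjusted p = 1.51e-04) and -0.73 (adjusted p = 5.35e-04). The dimmest, 1421991_a_at, had 7.28, 6.86 and 7.07 against 6.69, 6.51 and 6.60, a difference of -0.47 (adjusted p = 0.0148). The last call was lost without Atxn3-KO replicate 2, where the difference was -0.43 (adjusted p = 0.0510). In Affymetrix names _s_at marks probes shared between transcripts of different genes and _x_at marks probes similar to other sequences, so the 3 Igfbp4 probe sets so named may carry other signal. Those named _a_at, whose probes are shared among transcripts of the same gene, were lower as well.

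Igfbp5 and Igfbp3 gave less clear readings. Igfbp5, whose protein binds matrix and bone mineral, is the neighbour of Igfbp2 among protein-coding genes of GRCm38.p6, on chromosome 1. Its bright probe set 1422313_a_at had 8.05, 8.10 and 8.07 in Atxn3-WT and 7.99, 7.92 and 7.99 in Atxn3-KO MEFs, a difference of -0.11 (95% confidence interval -0.21 to -0.0007, adjusted p = 0.134), which passed when low probe sets were left out (adjusted p = 0.0441). The dim 1452114_s_at had 4.68, 4.33 and 4.42 against 3.86, 3.54 and 3.78, a difference of -0.75 (adjusted p = 0.00252). Its mean in Atxn3-KO MEFs was under the 25th percentile of all 6 arrays, where sizes are not exact. As an _s_at probe set it may also carry signal of other genes, and it gave the only Igfbp5 call. The interval of the bright Igfbp5 probe set did not overlap that of Igfbp2, -1.78 to -1.14.

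Igfbp3, which encodes the main carrier of IGFs in serum, was near the floor of the arrays. Its probe set 1458268_s_at had levels of 4.32, 4.43 and 4.44 in Atxn3-WT and 4.54, 4.58 and 4.68 in Atxn3-KO MEFs, a difference of 0.20 (adjusted p = 0.0364). This was the only Igfbp3 call, and an _s_at probe set may carry signal of other genes. The call was lost with an intensity trend (adjusted p = 0.0811) and when any array other than Atxn3-KO replicate 1 was left out. Without Atxn3-WT replicates 1, 2 and 3 the differences were 0.17, 0.22 and 0.23, and without Atxn3-KO replicates 2 and 3 they were 0.21 and 0.16. The other probe set, 1423062_at, had 0.14 (adjusted p = 0.378) and was dimmer than the 25th percentile on all arrays of both genotypes. The chromosomal neighbour of Igfbp3, Igfbp1, also lay below the 25th percentile, with means of 4.18 ± 0.01 and 4.24 ± 0.15 (SD, n = 3) in Atxn3-WT and Atxn3-KO MEFs and a difference of 0.06 (adjusted p = 0.614).

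Igfbp6 and Igfbp7 were the binding protein genes with clear rises. Igfbp6, whose protein prefers IGF2 to IGF1, had levels of 10.56, 10.62 and 10.78 in Atxn3-WT and 11.40, 11.45 and 11.43 in Atxn3-KO MEFs on its only probe set, 1417933_at. Every Atxn3-KO array lay above every Atxn3-WT array, with a difference of 0.78 (standard error 0.064, adjusted p = 1.71e-04). Igfbp7, a secreted matrix-associated protein that binds IGFs only weakly, had 12.06, 11.92 and 12.00 against 12.89, 12.93 and 12.89 on 1423584_at, a difference of 0.92 (standard error 0.050, adjusted p = 2.48e-05). Its dimmer probe set 1423585_at had 5.99, 5.89 and 6.10 against 6.81, 6.82 and 6.92, a difference of 0.86 (adjusted p = 1.18e-04). A remaining Igfbp7 probe set, 1437804_at, had 7.54, 7.76 and 7.63 against 7.69, 7.71 and 7.61, overlapping groups with a difference of 0.03 (adjusted p = 0.811). The probe sets of Igfbp7 thus did not all rise, and the annotation does not say which transcripts each reads.

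**Figure D2:**
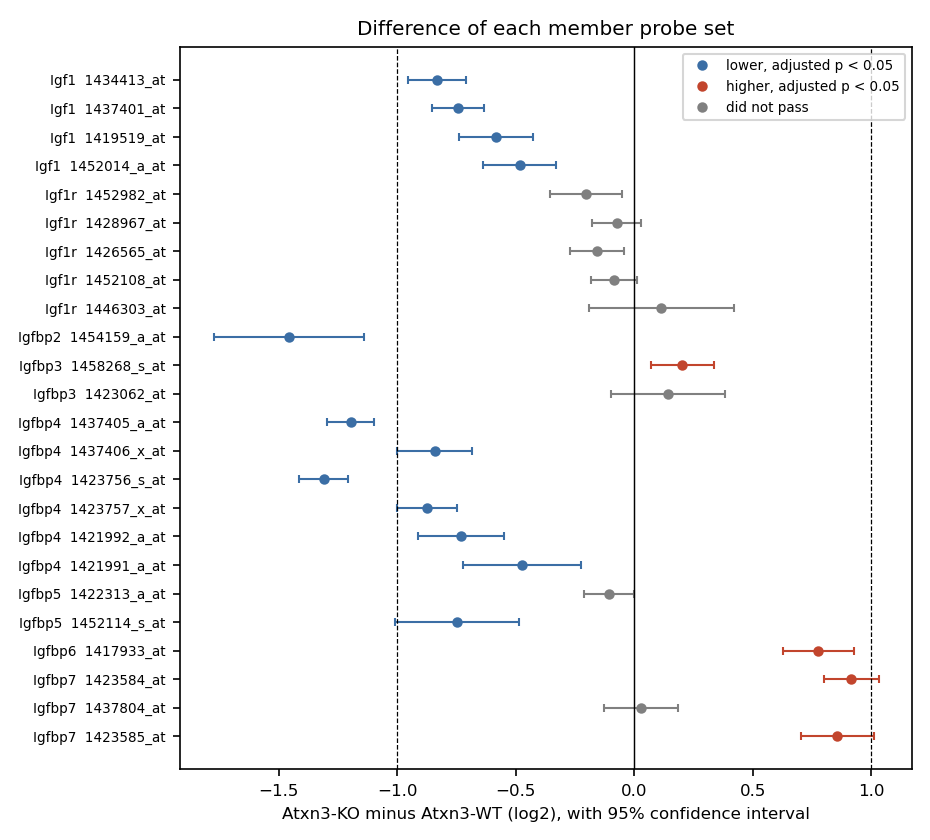
Difference between Atxn3-KO and Atxn3-WT MEFs on the log2 scale (horizontal axis) for each member probe set (rows), with 95% confidence intervals from limma. Dashed lines mark 2-fold changes; the 12 lower calls are of Igf1, Igfbp2, Igfbp4 and Igfbp5, and the 4 higher calls are of Igfbp3, Igfbp6 and Igfbp7.

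Groups that do not overlap were found for 21 of the 24 member probe sets, or 87.5%, against 41.1% of all probe sets tested. The exceptions were 1 probe set each of Igf1r, Igfbp3 and Igfbp7. Of the member probe sets, 21 had a mean level above the median of all probe sets, and the 3 below it were those of Igfbp3 and the dim one of Igfbp5. The part of the level in these shares was not tested.

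**Figure D3:**
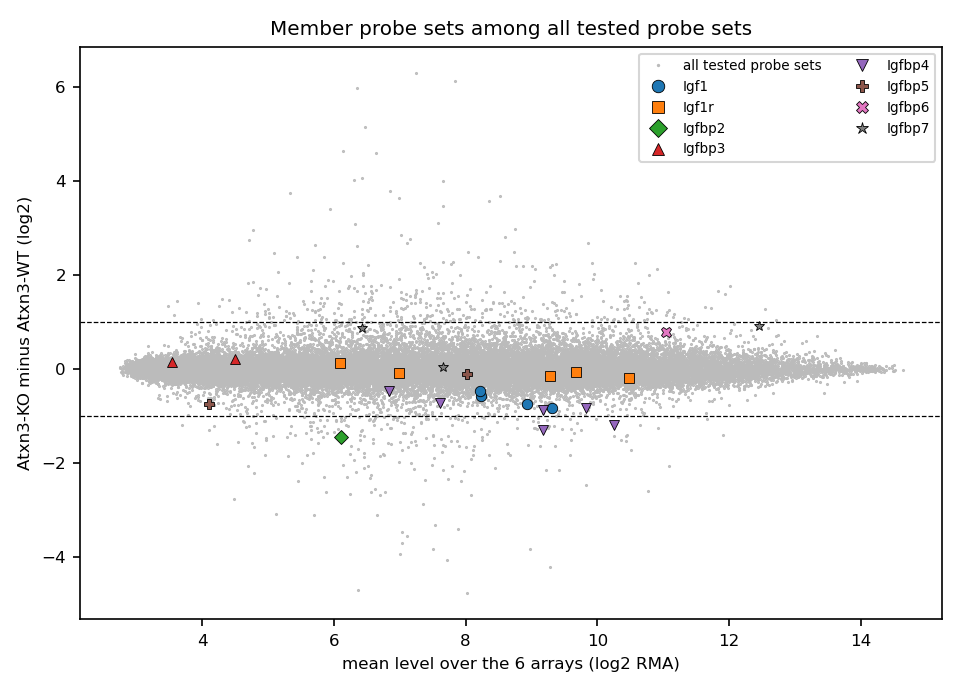
Atxn3-KO minus Atxn3-WT difference in log2 units (vertical axis) against the mean log2 level over the 6 arrays (horizontal axis) for all 45037 probe sets tested (grey) and the 24 member probe sets (large symbols). Dashed lines mark 2-fold changes; the Igfbp2 probe set and 2 of Igfbp4 lie below the lower line and no member lies above the upper line.

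Genes were ranked by how like their profile over the 6 arrays was to that of Igfbp4 and Igfbp2. Likeness was the root mean square difference between profiles, each centred on its own mean, so it includes the genotype difference and genes named by it move as the member does. It was taken for the members whose brightest probe set passed the 2-fold thresholds. For Igfbp4 the nearest were Bmp4, a bone morphogenetic protein, at 0.032 and Col4a1, a basement membrane collagen chain, at 0.046. Their differences were -1.22 and -1.19. For Igfbp2 the nearest were Zdhhc2, a protein palmitoyltransferase, at 0.13, Barx1, a homeobox factor, at 0.14, and Lrp11, of the LDL receptor-related family, at 0.15, with differences of -1.55, -1.43 and -1.46.

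By their brightest probe sets, other genes of the IGF pathway had smaller differences than Igfbp2 and the Igfbp4 probe sets past 2-fold. Each gene is represented by the probe set with the highest mean level, and its dimmer probe sets can differ more. For Igf2bp1 the dimmer 1455223_at and 1449210_at had -1.13 and -1.06, against -0.39 on the brightest. Of 56 genes listed, 52 were measured, and of these 8 (15.4%) passed upward, 12 (23.1%) downward and 32 in neither direction. At an adjusted p of 0.05 the upward share over all genes was 17.1%, the downward share 14.7% and the share in either direction 31.8%. The median difference was -0.03 over the listed genes and 0.0021 over all genes. Without Atxn3-KO replicate 2, 7 of the listed genes were lower. The share over all genes in that fit is not given here.

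Among the other ligands and receptors, Igf2 rose while Igf2r and Insr fell. Igf2, the imprinted second IGF ligand, had levels of 7.31, 7.20 and 7.25 in Atxn3-WT and 7.79, 7.86 and 7.75 in Atxn3-KO MEFs, a difference of 0.55 (standard error 0.052, adjusted p = 3.33e-04). Its other probe set, 1415931_at, was dim, with 0.05 (adjusted p = 0.786). Igf2r, the receptor that takes IGF2 to lysosomes, had 11.90, 11.80 and 11.77 against 11.56, 11.44 and 11.32, a difference of -0.39 (adjusted p = 0.00645), and its other probe set had -0.34. Insr, the insulin receptor, which can pair with IGF1R, had 8.69, 8.62 and 8.69 against 8.40, 8.41 and 8.33, a difference of -0.29 (adjusted p = 0.00364). For Igf2, Igf2r and Insr the groups did not overlap. The other 2 Insr probe sets had -0.14 and -0.05 and did not pass. Ins2, the insulin gene next to Igf2, and Insrr had differences of 0.08 and -0.02 and did not pass. None of the other binding protein genes Igfbp1, Igfbpl1 and Igfals passed.

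By brightest probe set, genes of the proteases that cut binding proteins moved up where they changed. Of 8 genes of this list, 3 rose (37.5%), 1 fell (12.5%) and 4 passed in neither direction. Over all genes these shares were 17.1% and 14.7%. Htra1, a secreted serine protease, had a difference of 0.34 (adjusted p = 0.00141), Adam12, a metalloprotease, 0.44 (adjusted p = 0.00385), and Ctsd, the lysosomal protease cathepsin D, 0.22 (adjusted p = 0.0150). Stc1, stanniocalcin 1, an inhibitor of pappalysins, fell with -0.57 (adjusted p = 0.0171). Dimmer probe sets varied: Htra1 1438251_x_at had 0.41 (adjusted p = 0.00171), Adam12 1421171_at -0.06 (adjusted p = 0.712) and Stc1 1421984_at 0.02 (adjusted p = 0.867). Stc2, of the same list and named after its values were seen, did not pass by its brightest probe set (-0.11). On its dimmer 1449484_at it fell, with -0.88 (adjusted p = 0.00162). The Stc1 call was lost when Atxn3-WT replicate 3 (-0.48), Atxn3-KO replicate 2 (-0.50) or Atxn3-KO replicate 3 (-0.50) was left out, and the Ctsd call without Atxn3-WT replicate 1 (0.19) and Atxn3-KO replicate 2 (0.21). Pappa, the pappalysin that cleaves the IGFBP4 protein, had -0.02 (adjusted p = 0.941). It is named here after its values were seen.

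Below the receptor, several adaptor genes fell, and of 3 genes of PI3K regulatory subunits Pik3r1 and Pik3r3 rose. Of 11 adaptor genes by brightest probe set, 5 fell (45.5%, against 14.7% of all genes), 0 rose and 6 passed in neither direction. The choice of probe set matters for Grb2, named after its values were seen. Its brightest had -0.13 (adjusted p = 0.0776) and its dimmer 1449111_a_at was higher by 0.23 (adjusted p = 0.00971). Irs2, an insulin receptor substrate, had levels of 8.84, 8.67 and 8.76 in Atxn3-WT and 8.49, 8.38 and 8.36 in Atxn3-KO MEFs, a difference of -0.34 (adjusted p = 0.00602). Irs1, named after its values were seen, had 0.02 (adjusted p = 0.826) with overlapping groups. Gab1, a docking protein, had -0.32 (adjusted p = 0.00196), and Grb10 and Grb14, adaptors that restrain the insulin and IGF1 receptors, had -0.22 and -0.20. The Grb14 call was lost with the replicate number as a block (-0.20, adjusted p = 0.0506), and on leaving out Atxn3-WT replicate 1 (-0.18) or Atxn3-KO replicate 2 (-0.20). Of 18 PI3K and AKT signaling genes by brightest probe set, 2 were higher and 2 were lower. That is 11.1% each way, against 17.1% higher and 14.7% lower of all genes. Some dimmer probe sets of genes not counted also passed, named after their values were seen. Gsk3b 1434439_at had -0.61 (adjusted p = 3.06e-04), and Akt2 had 0.18 on 1421324_a_at (adjusted p = 0.0208) and -0.34 on 1455703_at (adjusted p = 0.0494). Pik3r1, the p85α regulatory subunit of PI3K, had 10.04, 10.06 and 10.03 against 10.57, 10.55 and 10.57, a difference of 0.52 (standard error 0.040, adjusted p = 1.27e-04), and Pik3r3 had 0.28 (adjusted p = 0.00352). Pik3r2, named after its values were seen, had -0.08 (adjusted p = 0.298) with overlapping groups. Tsc2, which restrains mTORC1, had -0.20 and lost its call without Atxn3-WT replicate 3 (-0.19) and Atxn3-KO replicate 2 (-0.19). Foxo3, a transcription factor that AKT holds out of the nucleus, had -0.21 (adjusted p = 0.0378). This call was lost with the block (-0.21) and without each array other than Atxn3-WT replicate 2. Over all 6 fits without 1 array the difference was -0.27 to -0.18. Of its dimmer probe sets, 1434832_at had -0.24 (adjusted p = 0.0119) and 1450236_at had 0.04 (adjusted p = 0.773).

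**Figure D4:**
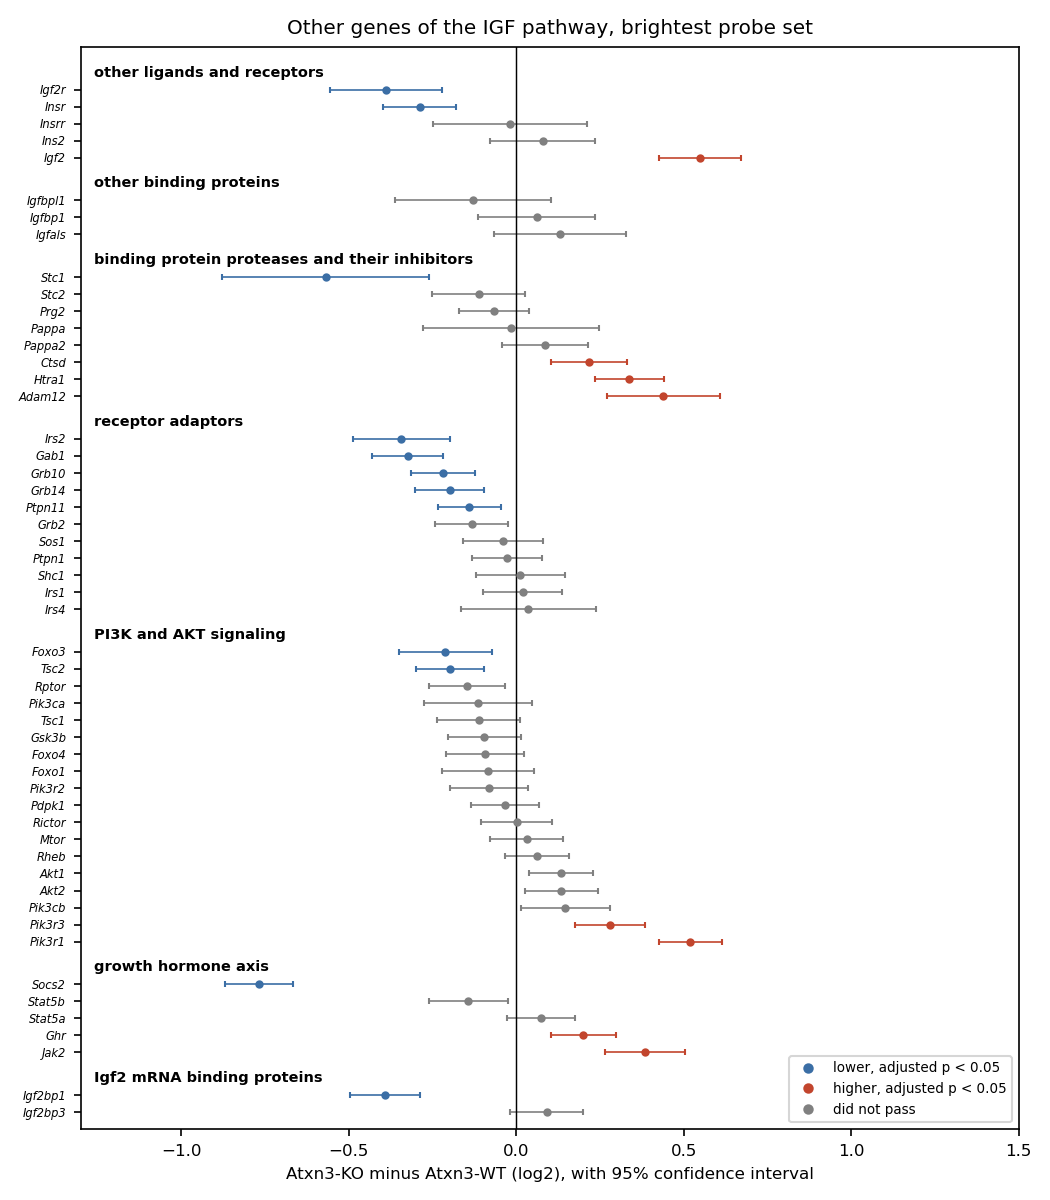
Difference between Atxn3-KO and Atxn3-WT MEFs on the log2 scale (horizontal axis) for 52 other genes of the IGF pathway (rows, by list), each by its brightest probe set, with 95% confidence intervals from limma. Coloured points passed an adjusted p of 0.05; Socs2 has the lowest and Igf2 the highest difference.

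In the growth hormone axis, which controls Igf1 transcription in liver and other tissues, Socs2 fell and Ghr and Jak2 rose. Socs2, a feedback inhibitor of growth hormone and IGF signaling, had levels of 8.12, 8.06 and 8.11 in Atxn3-WT and 7.31, 7.31 and 7.36 in Atxn3-KO MEFs, a difference of -0.77 (standard error 0.043, adjusted p = 3.06e-05) without overlap of the groups. Ghr, the growth hormone receptor, had 10.34, 10.31 and 10.27 against 10.51, 10.52 and 10.50, a difference of 0.20 (adjusted p = 0.0112) on the brightest probe set and 0.54 on another that passed, and its kinase Jak2 had 0.38 (adjusted p = 0.00151). Stat5a and Stat5b, which carry the signal to the nucleus, had 0.07 (adjusted p = 0.267) and -0.14 (adjusted p = 0.0820). With an intensity trend and among probe sets above the median level Stat5b had adjusted p-values of 0.0182 and 0.0268. Igf2bp1, which binds Igf2 mRNA, fell in all 4 of its probe sets, from -1.13 to -0.39, while the brightest Igf2bp3 probe set had 0.09 (adjusted p = 0.209).

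Markers of other cell types were not called, apart from 1 of adipocytes and 1 of epithelial cells. None of 8 macrophage and leukocyte markers passed, 2 (Ptprc and Itgam) were under the 25th percentile in both genotypes, and the log2 of their summed signal was 9.03 to 9.15 in Atxn3-WT and 9.12 to 9.16 in Atxn3-KO MEFs. None of 6 endothelial and none of 5 skeletal muscle markers passed, with summed signals of 7.60 to 7.64 against 7.61 to 7.68 and of 7.98 to 8.02 against 7.95 to 8.04. Of 3 adipocyte markers measured, Fabp4 rose by 0.61 while Adipoq and Cidec lay below the 25th percentile in both genotypes, and the summed signal was 7.44 to 7.70 against 8.01 to 8.16. Of 6 epithelial markers, Epcam rose by 0.38 while Cdh1 and Esrp1 lay below the 25th percentile, with 8.95 to 9.03 against 9.21 to 9.34. Epcam was read by 1447899_x_at, the brightest probe set of this list, with means of 8.54 and 8.92. As an _x_at probe set it may carry other signal. None of 4 glial and neuronal markers measured passed, with 8.23 to 8.46 against 8.20 to 8.33. The part of Fabp4-, Epcam- or Thy1-expressing cells in the differences of the IGF genes was not tested.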

How the data were processed

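Total RNA of 6 MEF samples, 3 per genotype, was hybridized to Affymetrix mouse GeneChip arrays, and groups were taken from the sample titles. The authors deposited log2 values made by robust multi-array average (RMA), which corrects background, makes the array distributions alike and summarizes probes, so a shift shared by all genes is removed. Both RMA and limma appear in the submitters' processing notes, with no version. No scanner intensities were analysed here. limma 3.58.1 in R 4.3.3 fitted Atxn3-KO minus Atxn3-WT with equal weights over 45037 probe sets, after removal of 64 controls and without a filter on level, with Benjamini-Hochberg adjustment over all of these probe sets. The weights of the paper's weighted model are not named, so array weights were an alternative. Of these probe sets, 34945 name 1 gene in the platform annotation, 932 name several and 9160 none. The fit was tested on simulated data. The member genes, the pathway and marker lists, the tests and the naming rule (every member, up to 4 passing genes per list and all genes of lists with at most 6 measured, and the 3 most alike genes, of which 1 is not reported here) were chosen with earlier results of these data known. The number of arrays limits the precision. Results were refitted with array weights, with the replicate number as a block, after quantile normalization or centring, with other variance models, among probe sets above the median level, against 2-fold, by the most variable probe set of a gene and without each array.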

Additional observations from a re-analysis of the deposited data

How the results depend on the processing

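Under the alternatives the member probe sets called lower numbered 11 to 14, against 12, and those called higher 3 to 4, against 4. The 3 probe sets past the 2-fold thresholds were 1 when tested by limma against a 2-fold change. There the requirement on the change is stricter, but the adjusted p was held to 0.05 and not 0.001, so these counts are not like measures. Without each array 2 to 3 passed the 2-fold thresholds. Listed pathway genes called lower were 7 to 11 without each array, the lowest without Atxn3-KO replicate 2, against 12, and 16 with an intensity trend, 15 among probe sets above the median level and 14 by the most variable probe set. Those called higher were 7 to 11, against 8. Shares over all genes under these alternatives are not given here. With the replicate number as a block 12 member probe sets were lower, 2 passed the 2-fold thresholds and 9 pathway genes were lower. No pairing by replicate number was seen in the values: deviations of same-numbered arrays correlated at 0.021, -0.023 and -0.036. Of 3 Atxn3-KO arrays, 1 correlated best with its own number. The labels do not say whether same-numbered samples were handled together, and these correlations cannot settle it. Of the refits of single member probe sets, 293 kept direction and side of the threshold, 7 lost the call, 7 gained it and 2 turned direction. These 2 were Igf1r 1446303_at, at -0.0445 without Atxn3-KO replicate 3 (range -0.0445 to 0.21 without each array), and Igfbp7 1437804_at, at -0.0257 without Atxn3-WT replicate 1 (range -0.0257 to 0.0881), neither called in any fit. Among named pathway genes, refitted by alternatives added after the data were seen, Insrr had 0.0262 with array weights and -0.13 to 0.0696 without each array, including 0.00764 without Atxn3-KO replicate 1 and 0.0696 without Atxn3-KO replicate 3, and Igfbp1 had -0.0183 without Atxn3-KO replicate 2 (range -0.0183 to 0.13). The causes were not tested. Further quantile normalization and median centring moved the median of all probe sets by 0.0024 and 0.013. Probe sets near the floor, those of Igfbp3 and the dim one of Igfbp5, are limited by signal over background.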
